A study of Homo sapiens with 4 samples.

Results

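The late sterol synthesis enzymes make lanosterol and carry it to cholesterol, and 7 of their genes were described here, chosen by symbol from the 20812 genes measured in each of 4 libraries: LSS, CYP51A1, TM7SF2, NSDHL, HSD17B7, EBP and DHCR7. All 7 were found, each with 1 amplicon target and with reads in every library. The cells were HCT116, an established line from a human colon cancer, and messenger RNA was counted as reads from 1 short PCR target per gene. The genotypes were wild type and hIDO1 overexpressing (the IDO1 line), and each was kept for 24 h in DMF or in 1 mM indole, which gives 4 libraries named here wild type DMF, wild type indole, IDO1 DMF and IDO1 indole. IDO1 is an enzyme that opens the ring of tryptophan, gut bacteria make indole from tryptophan, and DMF is the control that the design sets against indole. How the IDO1 line was made, and whether it is a single clone, is, in the sources used here, not given. The design text states 2 replicates each, but every file holds 1 count column, so each group was treated as 1 library and pairs of groups carry no p-value.

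Cholesterol synthesis builds squalene from acetyl units by the mevalonate pathway, closes it into the ring system of lanosterol and then reshapes lanosterol in a chain of steps in the endoplasmic reticulum. Those late steps remove methyl groups, shift and reduce double bonds, and end in cholesterol by alternative routes. The genes of the pathway are known targets of SREBP2, a membrane-bound transcription factor that is released when sterols in the endoplasmic reticulum are low, and that works on promoters together with NF-Y and Sp1. Inherited defects of several of these enzymes cause malformation syndromes, among them those of NSDHL, EBP and DHCR7.

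The promoters of 4 members are shown because their genes had different ratios of indole to DMF in wild type: EBP had the lowest ratio, NSDHL a higher one, CYP51A1 one nearer to 1, and TM7SF2 nearly the same level in both libraries. Each sequence is the 250 bases before the gene's start in RefSeq on GRCh38.p14, read along the gene's own strand, with capitals on every match of the NF-Y box CCAAT on either strand (ATTGG where the box lies on the other strand).
EBP (chrX:48521558-48521807, plus strand): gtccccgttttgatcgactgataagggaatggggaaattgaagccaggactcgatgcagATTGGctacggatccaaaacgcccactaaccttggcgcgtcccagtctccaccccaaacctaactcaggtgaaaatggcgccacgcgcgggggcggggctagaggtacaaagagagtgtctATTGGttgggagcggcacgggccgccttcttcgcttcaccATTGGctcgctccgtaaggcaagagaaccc
NSDHL (chrX:152830813-152831062, plus strand): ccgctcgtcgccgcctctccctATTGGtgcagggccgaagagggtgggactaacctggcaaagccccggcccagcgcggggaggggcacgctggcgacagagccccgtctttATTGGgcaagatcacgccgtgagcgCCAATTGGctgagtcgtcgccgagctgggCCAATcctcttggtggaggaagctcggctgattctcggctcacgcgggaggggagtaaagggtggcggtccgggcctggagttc
CYP51A1 (chr7:92134478-92134727, minus strand): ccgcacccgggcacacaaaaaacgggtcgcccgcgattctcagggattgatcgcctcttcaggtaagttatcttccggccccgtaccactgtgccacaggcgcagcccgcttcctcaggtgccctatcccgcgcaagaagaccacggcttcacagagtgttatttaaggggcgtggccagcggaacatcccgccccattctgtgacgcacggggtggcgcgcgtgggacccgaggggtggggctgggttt
TM7SF2 (chr11:65111622-65111871, plus strand): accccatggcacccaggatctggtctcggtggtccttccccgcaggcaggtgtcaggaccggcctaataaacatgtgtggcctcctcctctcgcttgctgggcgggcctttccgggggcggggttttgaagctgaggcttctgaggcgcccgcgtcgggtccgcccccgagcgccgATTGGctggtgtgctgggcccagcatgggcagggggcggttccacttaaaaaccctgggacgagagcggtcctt

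All 7 members matched a RefSeq window by symbol. CCAAT was in the window of 6 of the 7 and absent from that of CYP51A1, against 32.0% of 34788 different windows of the same length. NSDHL had 5 matches, EBP 3, 1 of the 2 DHCR7 windows 2, and LSS, TM7SF2 and HSD17B7 had 1 each. In NSDHL, 2 of the matches lie on opposite strands and overlap. The Sp1 box GGGCGG was in 6 of 7 members, all but NSDHL, and in 42.6% of all windows. The shortened sterol element TCACNC, searched on both strands, was in LSS, NSDHL and HSD17B7 and in 35.9% of all windows. The full sterol regulatory element was in 0 members and in 0.126% of all windows. It was also in 0 of 7 other late genes and in 0 of 7 matched genes of the early pathway. Of 8 matched genes of SREBP control and targets, 1 had it. TCACNC was in 3, 7 and 3 genes of these lists, counted over all windows of a gene. These are matches of letters in a fixed window and not measured binding sites.

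Library totals ranged from 18283862 reads in wild type indole to 22736172 in IDO1 DMF. IDO1 itself had at most 2 reads with the wild type genotype and 2440 to 3451 reads with overexpression, so the labels and the overexpressed gene went the same way. Of 10 listed markers of colon epithelium, 6 reached 10 CPM (reads scaled to a common library size) in some library, while CDX1 and CEACAM5 had 0 reads in all 4. Of 5 leukocyte markers, PTPRC and CD3E had 0 reads in all 4, CD14 had 7 to 18 reads and LCP1 3 to 5, and CD68 had 118 to 186 reads (6.10 to 8.51 CPM). A list of 16 genes of embryonic kidney lines and neurons was drawn up with earlier results of these data known. Reads were found for 6 to 9 of its genes in wild type and for all 16 in the IDO1 line. Its summed level was 193 to 257 CPM in wild type and 336 to 374 in the IDO1 line. TUBB3 was the largest part of it, at 157 to 213 CPM in wild type and 157 to 203 in the IDO1 line. UCHL1 and HOXD13 had 0 reads in wild type, and 333 to 369 and 228 to 271 in the IDO1 line. VIM had 55 to 88 reads in wild type and 1120 to 1226 in the IDO1 line. By edgeR's test for the line (adjusted p under 0.05), 12 of the 16 rose and 0 fell, and 2.45% of 13122 genes passed. Because of how the list was drawn up, the share over all genes is no fair comparison for that count. The fibroblast list had COL1A2, DCN and THY1 at 0 and summed to 74.7 to 98.6 CPM, nearly all of it from COL1A1 (73.8 to 97.1 CPM). The epithelial list summed to 4562 to 4890 CPM in wild type and 3567 to 3901 in the IDO1 line, and the keratins KRT8, KRT18 and KRT19 were the largest part of it. In DMF 5 of the 6 compared were lower in the IDO1 line, where 4389 of 8500 genes were. CDX2 was higher there (43.1 CPM in wild type and 48.3 in the IDO1 line). By edgeR's test for the line 0 of 7 tested passed. In bulk samples, fewer cells of a type and less RNA per cell cannot be told apart, and the part of these genes in the differences between the lines was not tested. The wild type indole library stood apart from the other 3: over 7888 genes its root mean square log2 difference from them was 0.418 to 0.455, against 0.176 to 0.217 among the other 3.

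Levels are given in CPM after TMM scaling, and are compared between libraries for each gene, not between genes, since each amplicon has its own efficiency. Folds are ratios of scaled CPM, and the interval after each is an exact 95% Clopper-Pearson interval of counting error between 2 libraries. It does not cover the spread between cultures, which these data do not give. Counts over all genes took those reaching 10 CPM in either library of a pair, and a gene was counted as apart if the log2 ratio of CPM + 1 was at least 1 in size. By that minimum 6 of the 7 members were compared. LSS, at 2.54 to 5.53 CPM, was below it in every library.

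LSS encodes lanosterol synthase, which closes epoxidized squalene into lanosterol, the sterol from which the chain of later steps starts. It had 111 reads in wild type DMF (5.22 CPM), 107 in wild type indole (5.53 CPM), 58 in IDO1 DMF (2.54 CPM) and 50 in IDO1 indole (2.61 CPM). The line and not the treatment separated these values: both wild type libraries were high and both libraries of the IDO1 line were low. The ratio of the IDO1 line to wild type was 0.487 in DMF (0.348 to 0.675) and 0.473 in indole (0.331 to 0.667). The ratio of indole to DMF was 1.06 in wild type (0.805 to 1.39) and 1.03 in the IDO1 line (0.690 to 1.53), so no difference with indole was detectable at this depth. Some antisense transcripts overlap exons of LSS, and whether reads were counted by strand is not given in the sources used here.

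CYP51A1 is the cytochrome P450 that takes a methyl group off lanosterol, the first step after ring closure. Its levels were 176 CPM in wild type DMF, 123 in wild type indole, 135 in IDO1 DMF and 164 in IDO1 indole. Wild type DMF was highest and wild type indole lowest, with the IDO1 line between them. Indole went with a 1.42-fold lower level in wild type (1.35 to 1.50) and with a 1.21-fold higher level in the IDO1 line (1.16 to 1.28). Readthrough transcripts and an antisense gene share exon sequence with CYP51A1, so its reads may include theirs.

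TM7SF2 encodes a reductase of the double bond that CYP51A1 leaves behind, a reaction that the lamin B receptor LBR also carries out. TM7SF2 had 105 CPM in wild type DMF, 107 in wild type indole, 82.5 in IDO1 DMF and 68.6 in IDO1 indole. The wild type libraries did not differ beyond counting error, with a ratio of 1.02 (0.959 to 1.08), and the IDO1 line was lower in both treatments. In the IDO1 line it was 1.20-fold lower with indole (1.12 to 1.29). An exon of VPS51 overlaps TM7SF2 on the same strand. LBR had 120 CPM in wild type DMF, 62.2 in wild type indole, 123 in IDO1 DMF and 141 in IDO1 indole. The genes of these alternative reductases thus had different patterns, since LBR was 1.92-fold lower with indole in wild type (1.80 to 2.06).

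NSDHL and HSD17B7 follow in the removal of the methyl groups at the next position, NSDHL as a dehydrogenase that splits off the carboxyl group and HSD17B7 as the reductase of the ketone that remains. NSDHL had 54.3 CPM in wild type DMF, 34.2 in wild type indole, 44.9 in IDO1 DMF and 50.4 in IDO1 indole. It was 1.59-fold lower with indole in wild type (1.44 to 1.75) and 1.12-fold higher in the IDO1 line (1.03 to 1.23). The highest neighbours, wild type DMF and IDO1 indole, did not differ beyond counting error (ratio 0.928, 0.851 to 1.01).

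HSD17B7 had 39.3 CPM in wild type DMF, 21.6 in wild type indole, 26.6 in IDO1 DMF and 27.9 in IDO1 indole. It was 1.81-fold lower with indole in wild type (1.61 to 2.04), while the libraries of the IDO1 line did not differ beyond counting error, with a ratio of 1.05 (0.932 to 1.18). HSD17B7 has a near-identical pseudogene with a target of its own, HSD17B7P2, and reads may be split between them. The pseudogene target was 1.36-fold lower with indole in wild type (1.19 to 1.55), and the reads of both together were 1.60-fold lower (1.46 to 1.74).

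EBP, the sterol isomerase that moves the ring's double bond, showed the widest range of the 6 members compared. It had 370 CPM in wild type DMF, 163 in wild type indole, 294 in IDO1 DMF and 275 in IDO1 indole. The wild type indole library was low and the other 3 were high. EBP was 2.26-fold lower with indole in wild type (2.17 to 2.36) and 1.07-fold lower in the IDO1 line (1.03 to 1.11). All neighbours in its order differed beyond counting error.

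DHCR7 reduces a double bond of the ring and makes cholesterol on a final route. It had 415 CPM in wild type DMF, 310 in wild type indole, 282 in IDO1 DMF and 293 in IDO1 indole. Wild type DMF was high and the other 3 were lower and close together. DHCR7 was 1.34-fold lower with indole in wild type (1.29 to 1.38), and its ratio of indole to DMF in the IDO1 line was 1.04 (1.00 to 1.08).

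**Figure D1:**
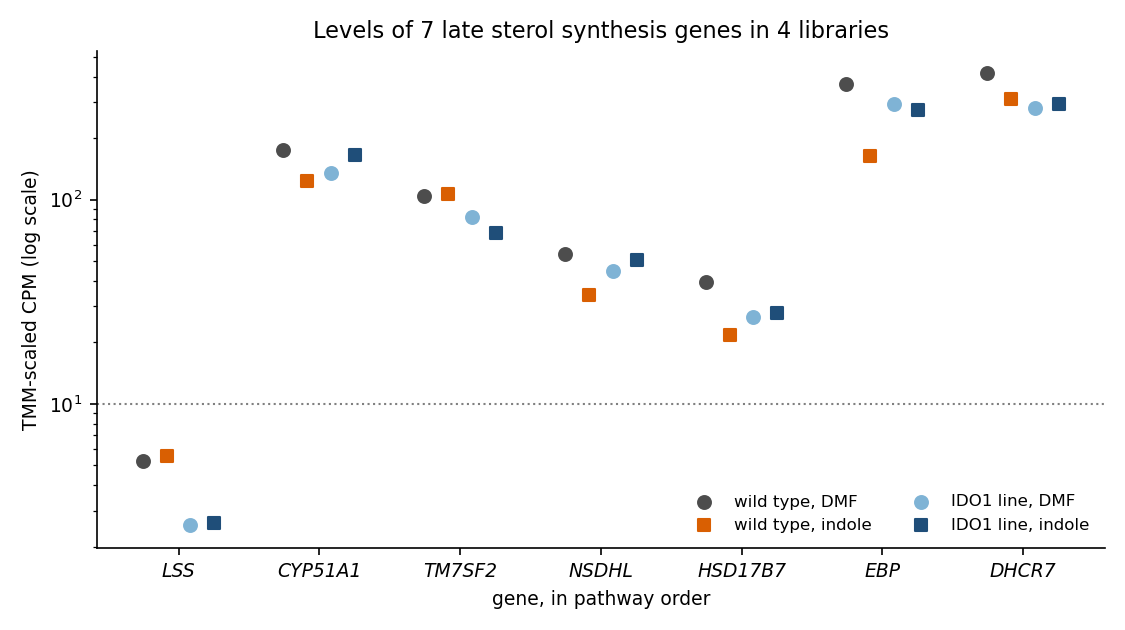
Levels of the 7 genes in pathway order, in TMM-scaled CPM on a log axis, with 1 point for each of the 4 libraries. The dotted line marks the minimum of 10 CPM, below which all 4 LSS points lie, and EBP shows the low point of wild type indole at 163 CPM.

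The comparison of indole with DMF in wild type asked how unmodified cells respond. Of the 6 members compared, 5 had lower levels with indole, where 4671 of 8679 genes had. Among these members 1, EBP, was at least 2-fold lower, where 1.54% of the 8679 genes were. The median log2 ratio of the members was -0.58 (range -1.18 to 0.03), beside -0.04 over all genes compared. Counted from the lowest ratio among the 8679 genes, EBP ranked 73, HSD17B7 315, NSDHL 643, CYP51A1 1153, DHCR7 1573 and TM7SF2 4919. With a trend of the ratio on abundance removed, EBP had -0.96 and was no longer past the 2-fold limit. Scaled by library totals and not by TMM, the median of all genes moved from -0.04 to 0.14 and that of the members from -0.58 to -0.41, and TM7SF2 had 0.20.

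The same comparison in the IDO1 line gave small differences in both directions. Of the 6 members compared, 4 were above 0 and 2, TM7SF2 and EBP, were below, where 4156 of 8523 genes were above 0. The members' median log2 ratio was 0.06 (range -0.26 to 0.28), beside -0.01 over the 8523 genes. None of the 6 was at least 2-fold apart, and 0.0821% of all genes were. CYP51A1 stood at percentile 93.7 of all genes and NSDHL at percentile 83.6, and TM7SF2 at percentile 6.30.

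**Figure D2:**
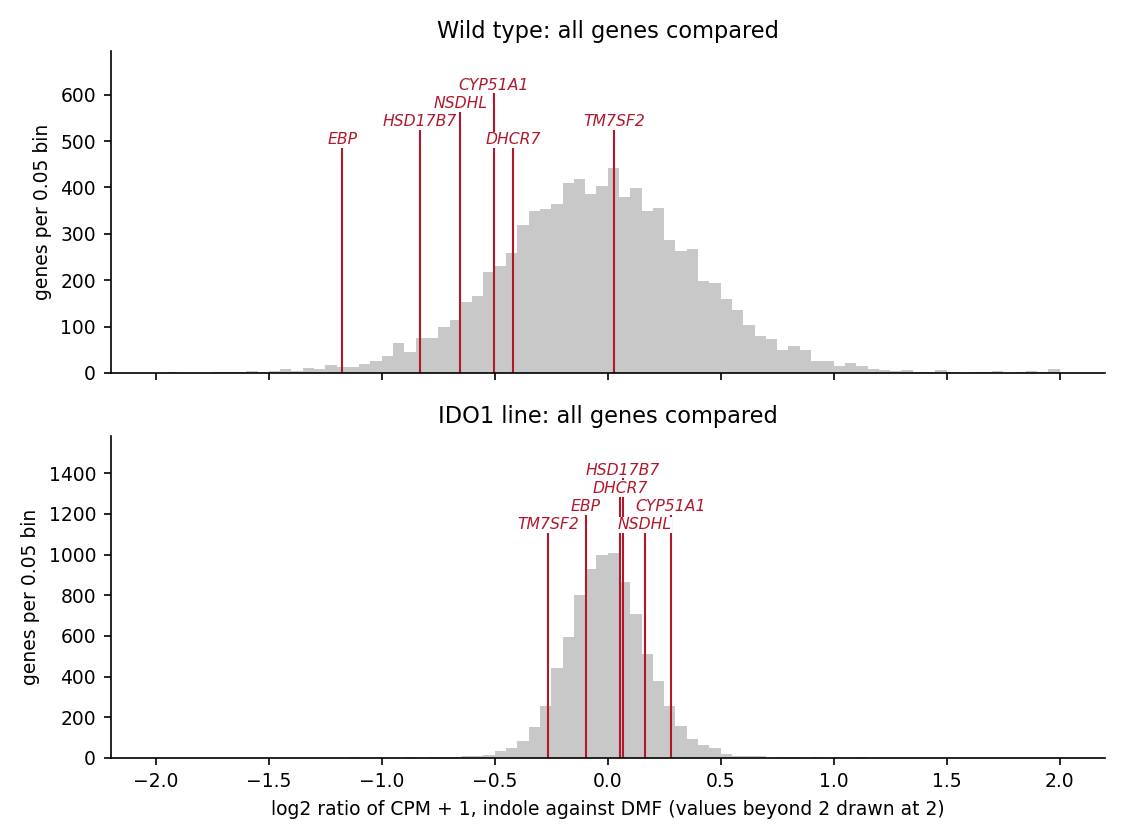
Distribution of the log2 ratio of CPM + 1, indole against DMF, over all genes compared in wild type (upper panel, 8679 genes) and in the IDO1 line (lower panel, 8523 genes), as genes per bin. The red lines mark the 6 members compared, which in wild type lie from EBP at -1.18 to TM7SF2 at 0.03 and in the IDO1 line from TM7SF2 at -0.26 to CYP51A1 at 0.28.

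The response to indole was then compared between the lines for each gene. The response in the IDO1 line minus that in wild type was 1.08 on the log2 scale for EBP, 0.90 for HSD17B7, 0.81 for NSDHL, 0.78 for CYP51A1 and 0.47 for DHCR7, and it was -0.29 for TM7SF2 and -0.04 for LSS. Of the 6 members compared, 1 (EBP) was higher by at least 1, where 2.61% of 8845 genes were. This call was lost with library totals (0.91 for EBP, with 111 and not 231 genes higher by at least 1), with totals without the 10 most abundant genes (0.91) and with the abundance trend removed (0.84). The median was 0.80 for the members and 0.03 for all genes. This difference was not tested, since 1 library per group leaves no spread to test it against.

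In DMF the IDO1 line was compared with wild type, which is a comparison of whole lines and not of IDO1 alone. All 6 members compared were lower in the IDO1 line, where 4389 of 8500 genes were. The members' median log2 ratio was -0.36 (range -0.56 to -0.27), beside -0.01 over the 8500 genes. None was at least 2-fold apart, and 0.447% of all genes were. DHCR7 was 1.47-fold lower (1.43 to 1.52) and HSD17B7 1.48-fold lower (1.33 to 1.64), at percentiles 1.47 and 1.55 from the lowest of all genes. CYP51A1 was 1.30-fold lower (1.24 to 1.36), TM7SF2 1.27-fold (1.19 to 1.35), EBP 1.26-fold (1.22 to 1.30) and NSDHL 1.21-fold (1.11 to 1.32). With library totals the median was -0.26 and all 6 were still lower. The wild type DMF library enters this comparison, that of indole with DMF in wild type and the difference of responses, so these are not separate results. The kidney-line and epithelial marker lists had different summed levels in the same libraries, as given above. The part of IDO1 itself cannot be told apart from other differences between the lines.

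In indole the IDO1 line was higher than wild type for 4 of the 6 members compared, and for 4631 of 8765 genes. EBP was 1.69-fold higher (1.61 to 1.76), NSDHL 1.47-fold (1.33 to 1.63), CYP51A1 1.33-fold (1.26 to 1.41) and HSD17B7 1.29-fold (1.13 to 1.47). TM7SF2 was 1.55-fold lower (1.45 to 1.67) and DHCR7 1.06-fold lower (1.02 to 1.10). The median log2 ratio was 0.38, beside 0.03 over 8765 genes, and 0 of 6 were at least 2-fold apart, where 4.51% of all genes were. The wild type indole library enters both this comparison and that of indole with DMF. Against wild type DMF in its place, all 6 members were lower in IDO1 indole, where 4404 of 8543 genes were. The members' median was -0.45, and 0.363% of the 8543 genes were at least 2-fold apart.

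**Figure D3:**
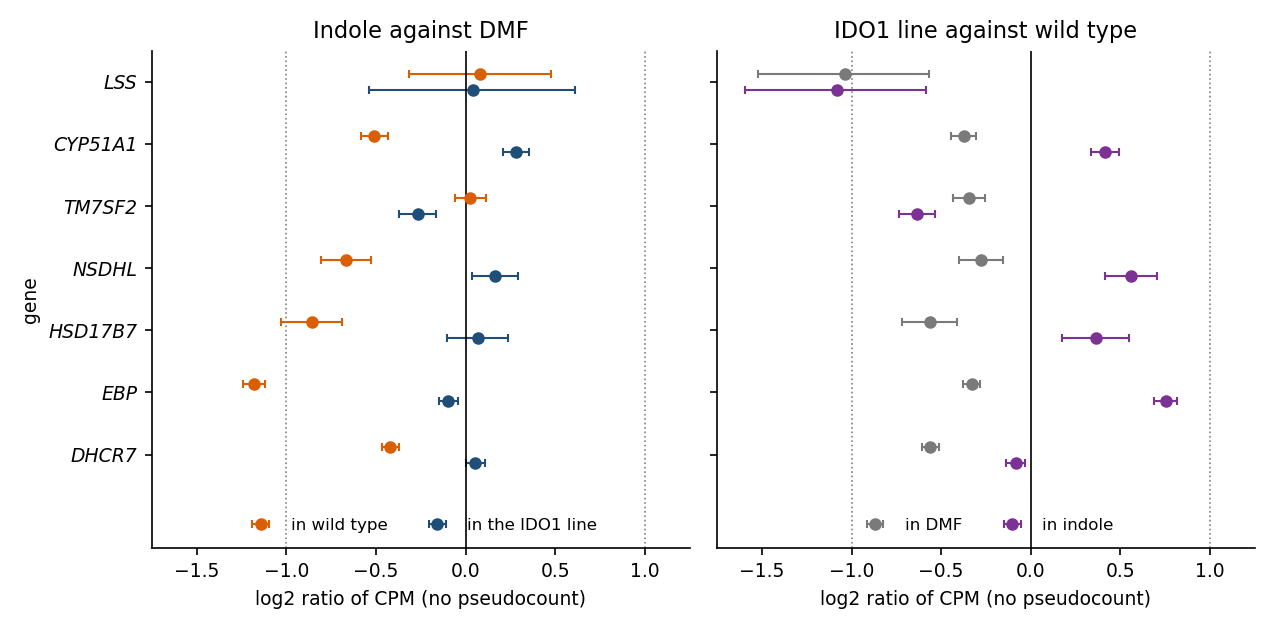
Log2 ratios of scaled CPM without a pseudocount for the 7 genes, indole against DMF (left) and the IDO1 line against wild type (right), with bars for the 95% interval of counting error. Dotted lines mark 2-fold, and in the left panel 5 genes of wild type lie below 0 while all 7 ratios of the IDO1 line lie between 0.831 and 1.21 as folds.

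The additive fits used all 4 libraries at once, with each treatment represented in both lines and each line in both treatments. By edgeR's quasi-likelihood test, 0 of 7 members passed an adjusted p of 0.05 for indole, as did 0% of 13122 genes. At an unadjusted p under 0.05 there were 448 genes, among them EBP alone of the members, at -0.63 on the log2 scale (SE 0.265, adjusted p 1.00, lower in 2 of 2 lines). DESeq2 also gave 0 members and 0 genes, with 129 genes at an unadjusted p under 0.05, EBP among them. For the line, 0 of 7 members passed in edgeR, where 2.45% of 13122 genes passed. The lowest adjusted p of a member in edgeR was 0.142, for LSS, at -1.07 on the log2 scale (SE 0.349, lower in 2 of 2 treatments), and TM7SF2 had -0.50 (SE 0.220, adjusted p 0.413). These were the members with an unadjusted p under 0.05, out of 1311 genes. In DESeq2 0 of 7 members passed for the line, 0 of them had an unadjusted p under 0.05, and 86 genes passed. The fit leaves 1 residual degree of freedom, which holds the interaction, so a difference in response between the lines enters the error term.

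Other genes of the late steps were lower with indole in wild type. The list held the methyl sterol oxidase MSMO1, the desaturase SC5D (listed as SC5DL), LBR, the scaffold protein ERG28 (listed as C14orf1), the EBP homolog EBPL, the sterol-regulated membrane protein TMEM97 and FAXDC2 (listed as C5orf4). FAXDC2 had at most 2 reads in a library and was not compared. All 6 compared were below 0 in wild type, where 4671 of 8679 genes were, with a median log2 ratio of -0.72. At least 2-fold lower were 0 of the 6, and 1.54% of the 8679 genes. MSMO1 was 1.62-fold lower (1.53 to 1.73) and ERG28 1.73-fold (1.65 to 1.81). TMEM97 was 1.69-fold lower (1.55 to 1.84), SC5D 1.40-fold (1.17 to 1.69) and EBPL 1.32-fold (1.23 to 1.41). In the IDO1 line the same 6 had a median of 0.07, from -0.08 for ERG28 to 0.20 for MSMO1 and LBR. Between the lines in DMF 5 of the 6 were below 0, where 4389 of 8500 genes were, with a median of -0.15. LBR had 0.04 there. By edgeR's quasi-likelihood test 0 of 6 passed for indole and 0 of 6 for the line.

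The early pathway, from acetoacetyl-CoA to epoxidized squalene, had a lower median ratio of indole to DMF than the members in wild type. Of 10 genes compared there, all 10 were lower with indole, where 4671 of 8679 genes were. The median log2 ratio was -1.18, beside -0.04 over all genes, and 7 of the 10 were at least 2-fold lower, where 1.54% of 8679 genes were. The lowest were ACAT2 at -1.75 and MVD at -1.45, and the highest were PMVK at -0.24 and SQLE, the epoxidase whose product LSS uses, at -0.18. Low ratios were thus not reached by every step, and among the early genes and the members those nearest 0 were at SQLE, LSS and TM7SF2. In the IDO1 line the median of 11 genes was 0.09. Against wild type in DMF the IDO1 line had -0.43 over 10 genes, all lower, where 4389 of 8500 genes were. The edgeR test passed 0 of 11 for either factor, with 5 genes at an unadjusted p under 0.05 for indole.

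**Figure D4:**
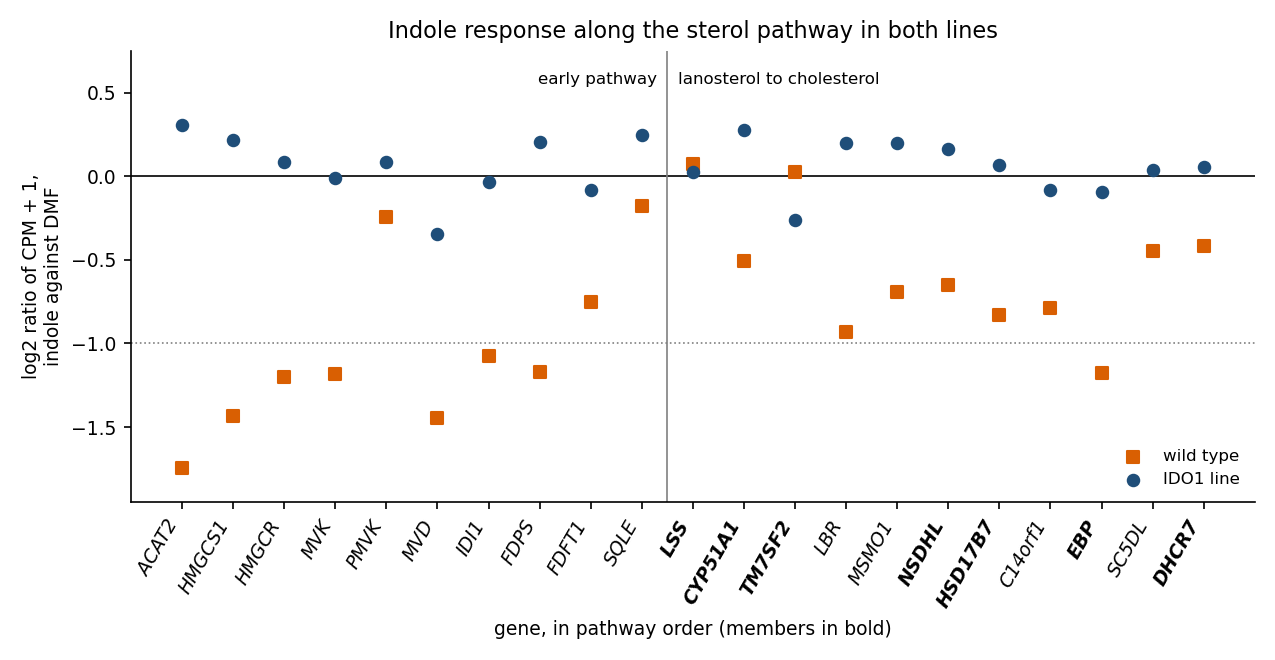
Log2 ratio of CPM + 1, indole against DMF, for genes of the sterol pathway in pathway order, in wild type (squares) and in the IDO1 line (circles), with the 7 members in bold. In wild type the early genes reach -1.75 (ACAT2) and the late genes -1.18 (EBP), while LSS, which is under 10 CPM, and TM7SF2 lie near 0. The IDO1 line lies between -0.35 (MVD) and 0.31 (ACAT2).

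Among 10 genes of SREBP control and its targets, 9 were compared in wild type. Their median was -0.68, and 3 were past 2-fold on the lower side with indole, against 1.54% of all genes. INSIG1, which holds SREBP in the endoplasmic reticulum and is itself a target, had -1.38 and STARD4, a sterol carrier, -1.04. The proteases that release SREBP, MBTPS1 and MBTPS2, had the highest values, 0.46 and 0.15. The electron donors of the late oxidations were closer to 0, with a median of -0.16 over 4 genes, from PGRMC1 at -0.49 and CYB5B at -0.25 to CYB5A at -0.08 and POR, the reductase that feeds CYP51A1, at 0.12. Genes of sterol storage and transfer had a median of 0.05 over 4 genes, from SOAT1 at -0.24 and NPC2 at -0.02 to LIPA at 0.11 and NPC1 at 0.14. Of 5 liver X receptor genes only NR1H2 reached 10 CPM in wild type, at -0.13. In edgeR 0 members of these lists passed for either factor.

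The pattern of the members over the 4 libraries was compared with that of 7882 other genes with at least 10 CPM in all libraries, as the distance between profiles of log2(CPM + 1) centred on each gene's own mean. The median profile of the 6 members was 0.31 in wild type DMF, -0.31 in wild type indole, -0.10 in IDO1 DMF and 0.02 in IDO1 indole. The 10 nearest genes, at distances of 0.0445 to 0.0826, were TRAPPC5, H1F0, POLR2H, ANXA2, PEMT, GSTO1, GPAT2, GBE1, SREBF1 and SNORA10. SREBF1, which encodes an SREBP factor, ranked 9 and was the only gene of the sterol lists among them, with MSMO1 next of those lists at rank 12 of 7888. The members themselves lay at 0.159 (CYP51A1), 0.164 (HSD17B7), 0.183 (NSDHL), 0.325 (DHCR7), 0.485 (EBP) and 0.698 (TM7SF2), so several members were farther from their median than many unrelated genes were. With 4 libraries shared by all genes, such likeness is a description.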

How the data were processed

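Messenger RNA of 4 HCT116 groups, 1 library each, was read from amplicon libraries made with the Ion AmpliSeq transcriptome kit, per the labels' protocols. The deposited values are raw read counts per target, per the file headers, and were not scaled. The submitters' processing notes name hg19 as the genome build, and the aligner and counting tool are not given in the sources used here. Libraries held 18283862 to 22736172 reads. Amplified reads carry no molecular identifiers and can repeat a molecule, so intervals cover counting error only. Nothing says whether the cultures were separate. The edgeR p-values rest on 1 residual degree of freedom, which holds the interaction, and on spread shared across genes (median prior degrees of freedom 26.3). They do not measure the spread between cultures or between technical repeats.

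TMM factors were computed across the 4 libraries. The additive fits modelled raw counts on line and treatment (edgeR 4.0.16 in R 4.3.3, filterByExpr, Benjamini-Hochberg adjustment at 0.05), with SEs back-calculated from the F statistic, and DESeq2 1.42.0 as an alternative. The pseudocount of 1 understates the change of low genes. Scripts were tested on simulated data. Promoter windows came from RefSeq (GRCh38.p14), and overlaps from GENCODE annotation. Named genes were the 7 members, the late genes, the 2 lowest and 2 highest of each other list in wild type, and the 10 nearest profiles. The members and lists were chosen with earlier results of these data known. One late pathway gene and a leukocyte marker are not reported here and enter no list count.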

Additional observations from a re-analysis of the deposited data

Results flagged for a closer look

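For 5 of the 7 members the indole response had opposite directions in the 2 lines (5 of the 6 compared), as it had for 53.2% of 8845 genes. The response in the IDO1 line minus that in wild type was 0.784 (log2) for CYP51A1, 0.815 for NSDHL, 0.896 for HSD17B7 and 0.473 for DHCR7, each lower with indole in wild type and higher in the IDO1 line. It was -0.290 for TM7SF2, which had 0.03 in wild type and -0.26 in the IDO1 line. The ratios of HSD17B7 in the IDO1 line (1.05, 0.932 to 1.18) and of TM7SF2 in wild type (1.02, 0.959 to 1.08) were within counting error of 1. DHCR7 in the IDO1 line had a ratio of 1.04 (1.00 to 1.08), barely beyond counting error. The opposite signs of HSD17B7, TM7SF2 and DHCR7 thus rest on values near 0. CYP51A1 (1.21, 1.16 to 1.28) and NSDHL (1.12, 1.03 to 1.23) were above 1 beyond counting error in the IDO1 line. With 1 library per group the difference was not tested. All 5 use the wild type indole library, which stood apart from the other 3 over the genes with at least 10 CPM in every library. They also use wild type DMF. Over the 6 members compared, the root mean square log2 difference from the libraries of the IDO1 line was 0.417 to 0.418 for wild type DMF. For wild type indole it was 0.430 to 0.509.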

How the results depend on the processing

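No paired analysis was possible because each group has 1 library. For single pairs of libraries, every member kept its direction under each other scaling, pseudocount, minimum and trend run, and 0 of 7 members passed the additive tests under each alternative (LSS was not tested with a minimum of 10 CPM in 2 libraries). The exception is the added comparison of IDO1 indole with wild type DMF, where CYP51A1, NSDHL, HSD17B7 and EBP were lower and not higher. The 2 additive fits were not run without wild type with indole, since 3 libraries leave no residual degree of freedom. With library totals the members' median log2 ratio was -0.41 for indole in wild type, -0.26 for the line in DMF and 0.63 for the difference of responses. With totals without the 10 most abundant genes it was -0.41 for indole in wild type and 0.64 for the difference. With the abundance trend removed it was -0.48 in wild type, where 0 members were then at least 2-fold lower. In all these 3 settings, 0 members had a difference of responses of at least 1. Library totals also split the genes apart for indole in wild type into 248 higher and 75 lower (118 and 134 with TMM), and those of the difference into 111 and 371 (231 and 189). They split those for the line in indole into 147 and 274 (200 and 195).

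The counts of genes at least 2-fold apart moved with the pseudocount and minimum. With a pseudocount of 5 they were 149 for indole in wild type, 25 for the line in DMF, 240 for the line in indole and 245 for the difference, against 252, 38, 395 and 420. With a minimum of 1 CPM they were 14 for indole in the IDO1 line (7 in the main analysis), 236 for the line in DMF, 756 for the line in indole and 702 for the difference. No minimum gave 14, 236, 756 and 708. With a minimum of 50 CPM they were 118, 3, 12, 177 and 189, in the order indole in wild type, indole in the IDO1 line, line in DMF, line in indole and difference. With wild type with DMF in place of wild type with indole, chosen after seeing the data, 31 genes were apart and the members' median was -0.45.

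For the additive line effect 76 genes passed with at least 10 CPM in 2 libraries and 86 in DESeq2, against 322. For indole 6 passed with library totals, 10 with no filter and 5 with at least 10 CPM in 2 libraries, against 0. The causes were not tested.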
